A study of Mus musculus with 14 samples.

Results

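Retnla, Chil3, Rnase2a (also known as Ear11) and Ear2 encode secreted proteins that IL4 is known to induce in mouse macrophages. They were taken for that reason, with earlier results of these data known, as a set of 4 genes out of the 9474 measured. IL4 is a cytokine of type 2 immunity that binds a receptor containing IL4Rα and activates the transcription factor STAT6, and macrophages that answer it are called alternatively activated. Retnla encodes RELMα (Fizz1), a small cysteine-rich secreted protein of the resistin-like family. Chil3 encodes Ym1, a chitinase-like lectin without chitinase activity that is also made by neutrophil precursors in marrow. Rnase2a and Ear2 belong to the eosinophil-associated ribonucleases, secreted members of the ribonuclease A family first described in eosinophil granules.

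RNA was sequenced from 14 libraries of cells labelled as macrophages of C57BL/6J mice. In the marrow setting, F4/80+ cells were sorted from bone marrow 12 days after mice received acute myeloid leukemia (AML) cells, which carried an IL4 cDNA in 3 libraries and an empty vector in 3 controls, so all of these hosts had received AML cells and the added IL4 came from them. In the culture setting, marrow monocytes were kept for 7 days in CSF1, which drives their growth into macrophages, with 20 ng/mL murine IL4 in 4 libraries and without it in 4 controls. For CSF1, doses of 25 ng/mL (growth protocol) and 20 ng/mL (design text) are stated. The promoter of the IL4 cDNA, possible pooling of mice and the treatment of hosts before transplantation are details not given in the sources used here. Whether replicate libraries stem from separate animals or cultures is not in the labels, and all p-values below refer to the spread between these libraries, which may be technical.

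Whole reads per gene were recovered from the deposited values and totalled 538204 to 883073 per library (median gene, 24 to 41 reads). Both replicate 4 libraries of the culture setting stood apart from their groups. The chi-square per degree of freedom over genes was 4.26 to 6.10 between IL4 replicate 4 and the other IL4 libraries, against 1.38 to 1.66 among those, and 4.41 to 5.95 against 1.44 to 2.24 in the controls. The fitted culture fold changes, levels and spread of the 4 genes and the marker sums are therefore also given without them. No count of called genes of a list in culture moved by more than 1 when either was left out. The labelled cell type was checked on marker lists. In culture, the 17 measured of 19 macrophage marker symbols summed to 30815 to 34279 reads per 1000000 recovered reads (RPM) with IL4 and 20889 to 29544 in controls, while 6 of 16 neutrophil markers summed to 209 to 493 with IL4 and 237 to 351 in controls. The higher macrophage sum did not stand for most of that list, of which 5 rose and 10 fell in culture (median log2 fold change -1.17, against -0.36 over all genes). Gpnmb alone, a membrane glycoprotein gene picked out after its values were seen, held 18071 ± 1617 RPM with IL4 and 8239 ± 3497 in controls (SD, n = 4 each). Over all genes 7.96% rose and 32.6% fell in culture, and 6.70% rose and 11.5% fell in marrow (limma adjusted p below 0.05). The counts of risen and fallen markers in every list here stand beside these shares. Without both replicate 4 libraries the macrophage sums were 32814 to 34279 RPM with IL4 and 20889 to 23610 in controls, and the neutrophil sums 439 to 493 and 237 to 314. Of the 6 neutrophil markers 1 rose and 1 fell in culture (median log2 fold change -1.28), and 0 fell after centring on library medians. S100a8 averaged 0.746 RPM with IL4 and 7.04 in culture controls, S100a9 0 and 8.22, and Ngp 0.692 and 5.09. The culture neutrophil sums thus came mostly from other markers of that list. In the sorted marrow cells the macrophage markers summed to only 2932 to 3351 RPM with IL4 and 2816 to 3133 in controls, and the neutrophil markers to 45087 to 56189 with IL4 and 59626 to 69356 in controls. Emr1, the gene of F4/80, stood at 65.8 to 155 RPM in marrow IL4 libraries and 43.7 to 101 in marrow controls, against 988 to 1199 in culture IL4 libraries and 2217 to 2735 in culture controls. Csf1r, the CSF1 receptor gene, fell in marrow (log2 fold change -1.17, limma adjusted p = 0.0193, but 0.0554 with no variance trend, 0.0705 without control 2 and 0.0578 without control 3) and in culture (-0.96, adjusted p = 0.000544). In RPM the neutrophil markers thus summed higher than the macrophage markers in every marrow library. The marrow fall of Csf1r did not stand for the macrophage list. Of its 17 measured markers 7 rose and 3 fell in marrow (median log2 fold change 0.81, against -0.06 over all genes). Monocyte markers moved with IL4 in marrow: 6 of 12 were measured, and they summed to 308 to 583 RPM with IL4 and 4572 to 6198 in controls (5 fell and 0 rose), with Cx3cr1 at 0 reads in every IL4 library of both settings. In culture the monocyte sum was 3336 to 4436 RPM with IL4 and 1162 to 1850 in controls, but only Fn1 rose, at 3675 ± 508 RPM with IL4 and 462 ± 212 in controls (SD, n = 4 each), and the other 5 fell (median of the 6, -3.01). Sums of 3 dendritic cell, 3 B cell and 3 progenitor markers were 103 to 169, 44.5 to 79.8 and 222 to 254 RPM in marrow IL4 libraries, against 278 to 400, 154 to 173 and 118 to 142 in marrow controls. In culture they were 2894 to 3460, 231 to 293 and 13.8 to 19.8 RPM with IL4, against 323 to 934, 153 to 207 and 33.6 to 74.8 in controls. Of the 3 progenitor and leukemic blast markers only Gata2 rose in marrow, and 1 fell (median log2 fold change 0.23). Gata2 averaged 173 RPM in marrow IL4 libraries and 40.9 in marrow controls. Of the 3 dendritic cell markers only Itgax rose in culture, at 2897 ± 278 RPM with IL4 and 177 ± 240 in controls (SD, n = 4 each), and 2 fell (median -0.82). Without both replicate 4 libraries the monocyte sums were 3488 to 4436 RPM with IL4 and 1162 to 1850 in controls, and the dendritic cell sums 2913 to 3460 and 323 to 549. The part of these shifts in the responses below was not tested. In bulk libraries, fewer cells of a type and less RNA per cell cannot be told apart.

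The 4 genes lie on 3 chromosomes of the mouse genome (GRCm38, GENCODE M21). Retnla is at chr16:48842551-48844461 on the plus strand, between its relatives Retnlb and Retnlg, with 4 exons and 599 exon bases. Chil3 is at chr3:106147554-106167564 on the minus strand, in a cluster with Chia1, Chil4, Chil5 and Chil6, with 11 exons and 1632 exon bases. Rnase2a (chr14:51255262-51256112, minus strand, 690 exon bases) and Ear2 (chr14:44102654-44103534, plus strand, 719 exon bases) each have 2 exons. Their transcripts were identical at 82.2% of 686 aligned bases. No run of 50 bases of the Retnla or Rnase2a transcripts occurred in a transcript of another gene. By contrast 29.4% of the Chil3 runs were shared with other genes, mostly Chil4, and 41.5% of the Ear2 runs were shared with 5 other genes, Ear10 most of all. Reads of Chil3 and Ear2 are therefore uncertain between these near copies, since the counting method is not given in the sources used here.

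Because the 4 genes moved together with IL4, the 250 bases before each RefSeq start (GRCm38.p6) are shown, 5′ to 3′ on the gene's own strand. They lie at chr16:48842359-48842608 (Retnla, plus), chr3:106167565-106167814 (Chil3, minus), chr14:51256113-51256362 (Rnase2a, minus) and chr14:44102404-44102653 (Ear2, plus). The start used for Retnla lies inside the GENCODE gene. Capitals mark matches to the STAT6 letters TTCNNNNGAA, to the related STAT letters TTCNNNGAA, and to the C/EBP letters TTNNGCAA or TTGCNNAA, searched on both strands.
Retnla: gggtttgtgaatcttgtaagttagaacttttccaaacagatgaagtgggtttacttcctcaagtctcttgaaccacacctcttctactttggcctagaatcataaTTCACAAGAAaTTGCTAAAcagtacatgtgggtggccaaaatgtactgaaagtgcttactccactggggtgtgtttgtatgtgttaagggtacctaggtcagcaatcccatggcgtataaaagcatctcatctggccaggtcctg
Chil3: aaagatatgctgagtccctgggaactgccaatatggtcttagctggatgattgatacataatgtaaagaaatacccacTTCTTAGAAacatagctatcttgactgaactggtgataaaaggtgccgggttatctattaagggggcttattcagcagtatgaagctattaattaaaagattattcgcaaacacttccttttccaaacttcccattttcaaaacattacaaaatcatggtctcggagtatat
Rnase2a: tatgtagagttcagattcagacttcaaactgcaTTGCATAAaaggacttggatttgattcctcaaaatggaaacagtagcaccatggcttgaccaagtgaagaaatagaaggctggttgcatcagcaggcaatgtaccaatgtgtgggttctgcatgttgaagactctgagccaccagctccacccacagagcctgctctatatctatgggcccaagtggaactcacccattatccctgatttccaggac
Ear2: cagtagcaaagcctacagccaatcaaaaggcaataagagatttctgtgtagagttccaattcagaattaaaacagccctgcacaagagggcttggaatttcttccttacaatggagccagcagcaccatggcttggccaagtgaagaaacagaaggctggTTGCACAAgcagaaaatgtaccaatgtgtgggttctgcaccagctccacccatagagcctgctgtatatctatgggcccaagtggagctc

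The Retnla window held the STAT6 letters as TTCACAAGAA, 145 bases before the start, and just after them the C/EBP letters as TTGCTAAA, 134 bases before it. The Chil3 window held the shorter STAT letters as TTCTTAGAA, 172 bases before the start. The Rnase2a and Ear2 windows each held the C/EBP letters, as TTGCATAA 217 bases and as TTGCACAA 90 bases before the start, and neither STAT pattern. No matches overlapped. Among 32851 RefSeq windows from 250 bases before to 50 after a start, 6.95% held the STAT6 letters, 8.30% the shorter STAT letters and 10.8% the C/EBP letters. Over these windows Rnase2a and Ear2 were identical at 87.5% of 255 aligned bases, while the other pairs reached 60.8% to 67.3%. The matches are descriptions of letters and not of binding.

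Retnla, the resistin-like member, was read in every IL4 library and in no control. In marrow the IL4 libraries had 895, 1061 and 3037 reads, or 1592, 1971 and 3728 RPM, and the 3 controls had 0 reads each. In culture the IL4 libraries had 5598, 4902, 4641 and 11618 reads, or 6953, 6066, 6757 and 17762 RPM, and the 4 controls again had 0. The groups did not overlap in either setting, and the highest level was in culture IL4 replicate 4. With a floor of 3 reads over the control group, Retnla was at least 1711-fold higher with IL4 in marrow and at least 8486-fold higher in culture. Culture IL4 replicate 4 held 11618 of the 26759 IL4 reads behind the culture bound, which was not drawn again without it. The zero reads of the controls allow up to 1.52 RPM in marrow and 1.07 in culture, for counting error only. The fitted log2 fold change, which depends on the 0.5 reads added to zero counts, was 11.53 ± 0.32 in marrow (SE, n = 3 each, limma adjusted p = 2.374e-07) and 13.52 ± 0.32 in culture (SE, n = 4 each, limma adjusted p = 1.512e-09). It ranked first of the 9474 genes in both settings. At 0 reads the log2 values of the controls differ only by the library constants (SD 0.0572 in marrow and 0.249 in culture). The SE and p of Retnla therefore hold no spread of its reads between controls. Without the IL4 replicate 4 library the culture value was 13.16, and without control 4 it was 13.51.

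Chil3, the chitinase-like member, reached nearly the same level with IL4 in both settings from very different control levels. In marrow the IL4 libraries had 15986, 15723 and 24205 reads, or 28443, 29214 and 29712 RPM, and the controls 2426, 2739 and 2205 reads, or 3789, 4264 and 3210 RPM. In culture the IL4 libraries had 24492, 27681, 16828 and 15896 reads, or 30422, 34256, 24500 and 24302 RPM, and the controls 2, 6, 2 and 2 reads, or 2.27, 9.87, 3.20 and 2.88 RPM. Every IL4 library was above every control in both settings, and the marrow controls were all far above the culture controls. The ratio of the summed reads, per total, was 7.80 in marrow (exact 95% interval 7.62 to 8.0) and 6731 in culture (3853 to 13027), with intervals for counting error only. Culture control 2 holds 6 of the 12 control reads, and without it the culture ratio was 10551. Of the possible whole-number solutions for the Chil3 reads the smallest was taken, and the next would make them about 3 times as many and the IL4 levels 69528 to 96178 RPM, leaving fold changes and tests as they are. The log2 fold change was 2.95 ± 0.14 in marrow (SE, n = 3 each, limma adjusted p = 7.089e-06), rank 46 of 9474, and 12.58 ± 0.35 in culture (SE, n = 4 each, limma adjusted p = 6.902e-09), rank 3. The culture value was 12.65 without IL4 replicate 4 and 12.47 without control 4. Beside the marrow control level of Chil3 stand the neutrophil markers given above: S100a8 and S100a9, calcium-binding proteins of neutrophils, averaged 15453 ± 1525 and 29069 ± 1921 RPM in marrow controls (SD, n = 3), against 7.04 ± 8.27 and 8.22 ± 10.9 in culture controls (SD, n = 4). In the marrow comparison itself their log2 fold changes were -0.37 (limma adjusted p = 0.118) and -0.26 (adjusted p = 0.270), or 0.000163 and 0.00138 with voom weights, while Ngp, a neutrophil granule protein, fell by 0.89 (adjusted p = 0.0139; 0.0547 without IL4 replicate 3 and 0.0506 without control 1). In the culture IL4 libraries, where Chil3 was just as high, S100a9 had 0 reads and S100a8 had 2 reads in all. The part of neutrophil RNA in the marrow control level of Chil3 was not tested.

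Rnase2a, the first of the ribonucleases, was absent from the reads of all controls. In marrow the IL4 libraries had 27, 114 and 163 reads, or 48.0, 212 and 200 RPM, and the controls had 0. In culture the IL4 libraries had 646, 510, 434 and 676 reads, or 802, 631, 632 and 1034 RPM, and the controls had 0. IL4 replicate 1 of the marrow was the lowest IL4 library, at 0.233 of the mean of the other two, and still lay above all controls. With the same floor of 3 reads per group, Rnase2a was at least 104-fold higher with IL4 in marrow and at least 718-fold higher in culture. Its log2 fold change was 7.38 ± 0.53 in marrow (SE, n = 3 each, limma adjusted p = 7.972e-05), rank 3, and 10.04 ± 0.22 in culture (SE, n = 4 each, limma adjusted p = 1.362e-09), rank 4. Without marrow IL4 replicate 1 the marrow value was 8.07. In culture it was 9.89 without IL4 replicate 4 and 10.04 without control 4. As for Retnla, the SE and p of Rnase2a hold no spread of reads between controls.

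Ear2, its close relative, differed in that the marrow controls already held reads. In marrow the IL4 libraries had 81, 176 and 271 reads, or 144, 327 and 333 RPM, and the controls 38, 57 and 49 reads, or 59.4, 88.7 and 71.3 RPM. In culture the IL4 libraries had 578, 471, 587 and 1328 reads, or 718, 583, 855 and 2030 RPM, and the controls 0, 2, 0 and 0 reads, where the 2 reads are 3.29 RPM. The groups did not overlap, but in marrow the gap was small, with the lowest IL4 library at 144 and the highest control at 88.7 RPM. The ratio of the summed reads, per total, was 3.77 in marrow (exact 95% interval 3.13 to 4.57) and 1410 in culture (390 to 11648), again for counting error only. Without culture control 2 no control read is left, and the culture value was at least 736-fold by the floor of 3 reads. Without culture IL4 replicate 4 the culture ratio was 999.6. The log2 fold change was 1.77 ± 0.31 in marrow (SE, n = 3 each, limma adjusted p = 0.00463), rank 151, and 9.74 ± 0.60 in culture (SE, n = 4 each, limma adjusted p = 3.491e-06), rank 6. In culture it was 10.39 without control 2, which holds the only 2 control reads, 9.37 without IL4 replicate 4 and 9.55 without control 4.

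Since these ribonucleases are named for eosinophils, markers of that cell were examined beside them. Of 12 eosinophil marker symbols 3 were measured (Siglec5, Ccr3 and Prg2), and Epx and Il5ra were not analysed here. RefSeq lists Siglec5 as an older symbol of both Siglecf, the eosinophil receptor gene, and Siglece. Their summed level was 158 to 233 RPM in marrow IL4 libraries and 73.4 to 88.7 in marrow controls. In culture it was 6.19 to 19.9 with IL4 and 13.6 to 35.9 in controls. Prg2, the granule protein MBP, rose in marrow by 1.22 ± 0.20 on the log2 scale (SE, limma adjusted p = 0.00344), at 170 ± 43.2 RPM with IL4 and 71.0 ± 6.31 in controls (SD, n = 3 each). It made up most of the marrow sum, and the other 2 markers did not pass there. Ccr3 had 13 reads in all marrow IL4 libraries and 4 in all marrow controls, and Siglec5 19 and 17. The part of eosinophil RNA in the marrow level of Ear2 was not tested. In the culture IL4 libraries, where Ear2 and Rnase2a were highest, Prg2 had 0 reads. Gata2, a transcription factor of basophils, mast cells and progenitors, also rose in marrow, at 173 ± 5.09 RPM with IL4 and 40.9 ± 10.3 in controls (SD, n = 3 each, log2 fold change 2.08, limma adjusted p = 0.000206).

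**Figure D1:**
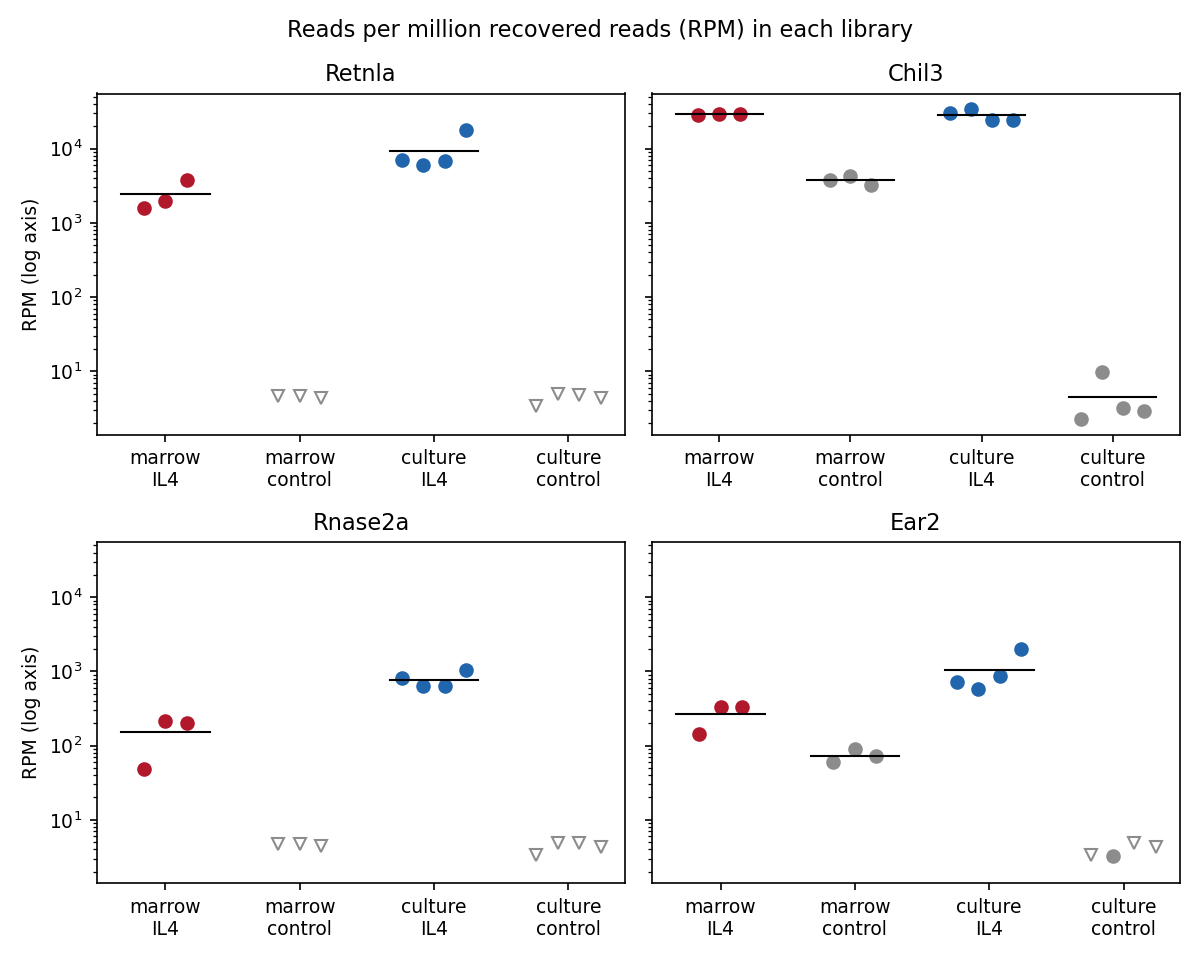
RPM (log axis) of each gene in every library of the 4 groups, with black lines at the group means where all libraries had reads. Open triangles stand for libraries with 0 reads and are drawn at the level that 3 reads would give (3.40 to 4.94 RPM). Chil3 lies between 24302 and 34256 RPM with IL4 in both settings, and only Chil3 and Ear2 have reads in the marrow controls.

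Set against the whole tables, all 4 genes passed the test upward in marrow, where 6.70% of the 9474 genes rose (limma adjusted p below 0.05), and in culture, where 7.96% rose. In all 4 the IL4 and control libraries did not overlap, as in 15.5% of all genes with IL4 higher in marrow and 7.49% in culture. Because the 4 were taken as known IL4-induced genes, with earlier results of these data known, these shares are no test of the set. The exact permutation test gave 0.1 for each gene in marrow and 0.0286 in culture (two-sided), the smallest p that 3 against 3 and 4 against 4 libraries allow. Over all genes the median response was -0.06 in marrow and -0.36 in culture (log2), and the 4 genes rose also when libraries were centred on their medians. In the authors' deposited table for marrow the fold changes were 2960 for Retnla (q = 0.0139), 7.75 for Chil3 (q = 0.0139), 167 for Rnase2a (q = 0.0271) and 3.42 for Ear2 (q = 0.0968). The authors' deposited table for culture listed folds of 1133 for Retnla (q = 9.011e-10), 409 for Chil3 (q = 0.0126), 859 for Rnase2a (q = 9.049e-11) and 284 for Ear2 (q = 0.0162). Those of Retnla, Chil3 and Ear2 lie below the bound or ratio of the reads given above, and that of Rnase2a lies above its bound. The culture folds of all 9474 genes match a log2 taken again of the values that are already log2, with values below 0.01 set to 0.01, while the marrow folds of all 9474 match the plain difference (within 0.01 on the log2 scale). For Ear2 in marrow the authors' q lies above 0.05 and the limma adjusted p below it.

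The response was then compared between the settings with an interaction term over all 14 libraries, marrow minus culture. In this fit 23.1% of all genes passed in either direction and 6.45% had the lower response in marrow, among them all 4 genes. Chil3 had the most negative difference of the 9474 genes, -9.63 ± 0.46 on the log2 scale (SE, limma adjusted p = 3.097e-08), and Ear2 the next, -7.97 ± 0.83 (adjusted p = 2.010e-05). For these 2 genes the controls differed between settings. Chil3 averaged 3754 ± 528 RPM in marrow controls (SD, n = 3) and 4.55 ± 3.57 in culture controls (SD, n = 4), and Ear2 73.1 ± 14.8 and 0.823 ± 1.65. The mean IL4 level of Chil3 in marrow was 1.03 of that in culture, 29123 ± 639 against 28370 ± 4843 RPM (SD, n = 3 and 4), with overlapping libraries. For Retnla the difference was -1.98 ± 0.49 (adjusted p = 0.00972) and for Rnase2a -2.66 ± 0.57 (adjusted p = 0.00438). Both had 0 reads in every control, so IL4 levels set their difference, and its SE and p hold no spread of control reads. It did not pass when precision weights from the reads were used (voom, adjusted p = 0.586 and 0.245).

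**Figure D2:**
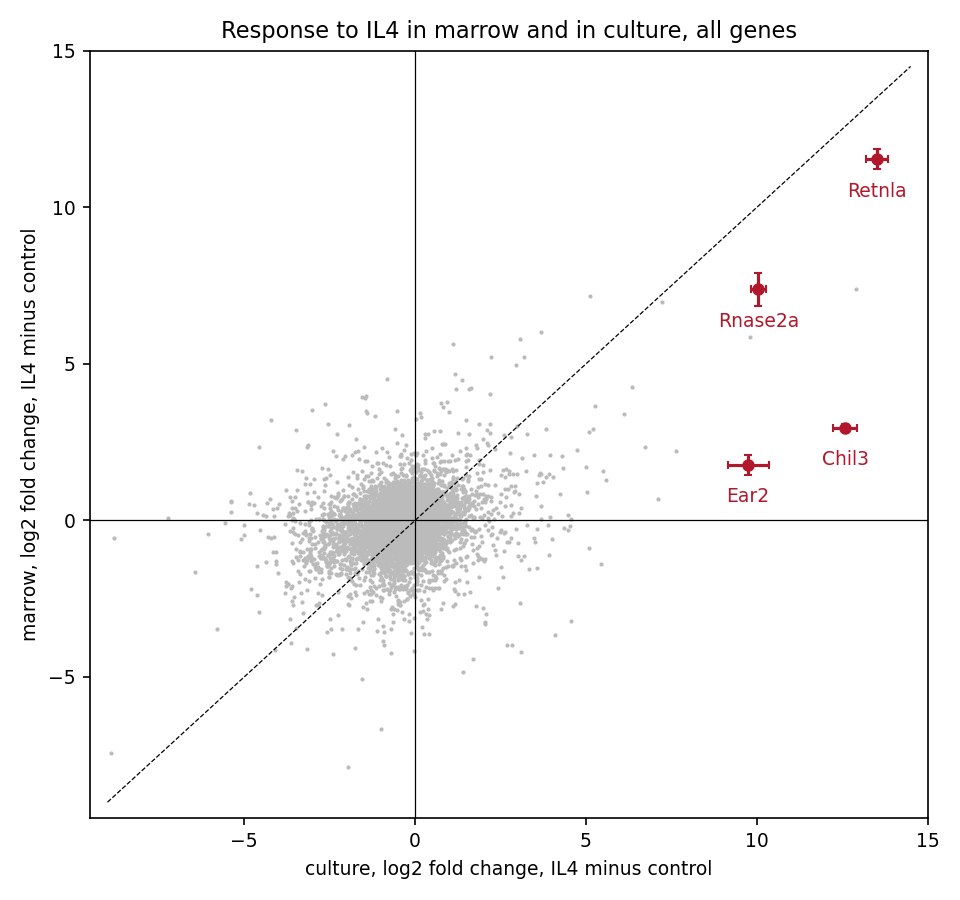
Log2 fold change, IL4 minus control, in marrow (vertical axis) against culture (horizontal axis) for all 9474 genes (grey), with the 4 genes in red and bars of 1 SE. The dashed line marks equal responses. Retnla (11.53 and 13.52) and Rnase2a (7.38 and 10.04) lie nearer the line than Chil3 (2.95 and 12.58) and Ear2 (1.77 and 9.74).

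The IL4 levels of 3 genes were lower in marrow than in culture. Retnla averaged 2431 ± 1139 RPM in marrow IL4 libraries against 9385 ± 5598 in culture IL4 libraries, 0.259 of the culture mean. Rnase2a averaged 153 ± 91.4 against 775 ± 190, 0.198 of it, and Ear2 268 ± 107 against 1046 ± 665, 0.256 of it (SD, n = 3 and 4 throughout). In each of these 3 genes every marrow IL4 library lay below every culture IL4 library. Macrophage markers were lower there too, with sums of 2932 to 3351 RPM in marrow IL4 libraries against 30815 to 34279 in culture IL4 libraries. Emr1 averaged 119 against 1101 RPM and Csf1r 193 against 1615. The part of cell mixture in the lower levels was not tested, so they are not levels per macrophage. Without culture IL4 replicate 4 the marrow means were 0.369 of the culture mean for Retnla, 0.223 for Rnase2a, 0.373 for Ear2 and 0.980 for Chil3. Per length, Retnla and Chil3 were among the most abundant of 9062 genes with a length. By RPKM (reads per kilobase of exon and 1000000 reads), Chil3 ranked 2 to 3 in marrow IL4 libraries, 5 in all 3 marrow controls and 1 to 2 in culture IL4 libraries, and Retnla ranked 4 to 5 in marrow IL4 libraries and 1 to 2 in culture IL4 libraries. Rnase2a ranked 77 to 612 and Ear2 44 to 143 in marrow IL4 libraries, against 18 to 26 and 10 to 30 in culture IL4 libraries. Ear2 ranked 260 to 453 in marrow controls.

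The order of the genes per length was Chil3, Retnla, Ear2 and Rnase2a in all 3 marrow IL4 libraries. The Retnla to Chil3 ratio of reads per kilobase was 0.153 to 0.342 in marrow IL4 libraries and 0.482 to 1.99 in culture IL4 libraries, where Retnla exceeded Chil3 in replicate 4 only. Rnase2a and Ear2 were close in culture, with a ratio of 0.530 to 1.16 that spans equality, while in marrow Rnase2a stood at 0.347 to 0.675 of Ear2. As a share of all recovered reads, the 4 genes together took 3.02% to 3.40% in marrow IL4 libraries and 0.328% to 0.435% in marrow controls. In culture they took 3.27% to 4.51% with IL4 and at most 0.00132% in controls. Chil3 made up 87.5% to 94.1% of the reads of the 4 genes in marrow IL4 libraries and 53.9% to 82.5% in culture IL4 libraries.

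**Figure D3:**
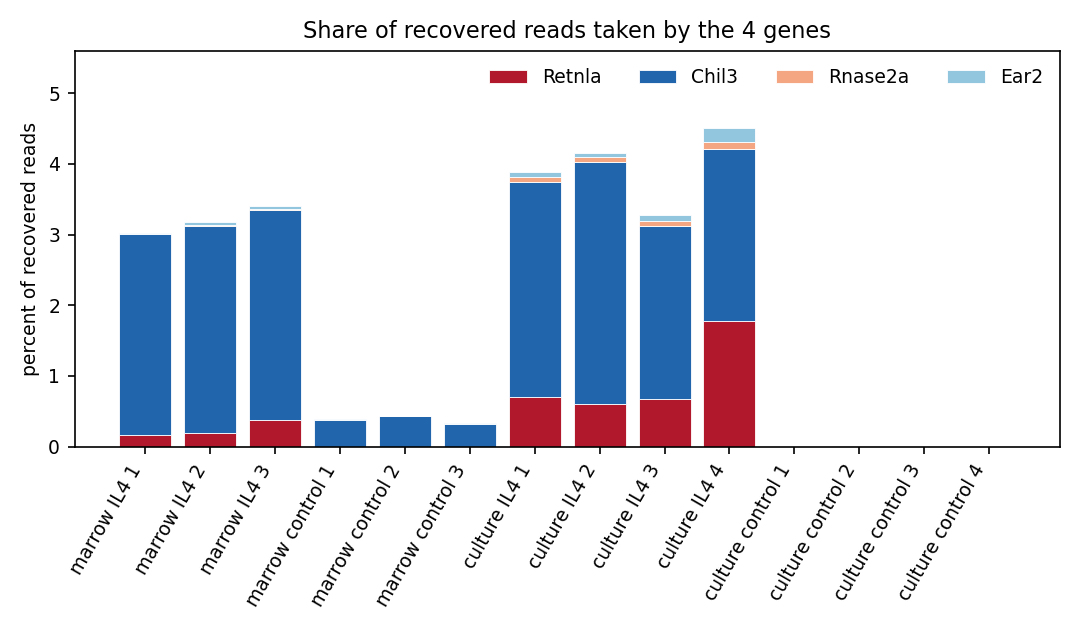
Percent of the recovered reads of each library taken by the 4 genes, stacked by gene. The bars reach 3.02% to 3.40% in marrow IL4 libraries and 3.27% to 4.51% in culture IL4 libraries, with Chil3 as the main part, and cannot be seen in culture controls.

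The 4 genes did not all vary in the same way between IL4 libraries. Culture IL4 replicate 4 was high in Retnla (2.69 times the mean of the other 3 libraries), Ear2 (2.83 times) and Rnase2a (1.5 times) but not in Chil3. In Chil3 it stood at 0.818 of that mean, much like replicate 3 (0.826). The same library was low in Arg1, the arginase of alternatively activated macrophages (0.258 of the mean of the others, at 2620 RPM against 9957 to 10515). Marrow IL4 replicate 1 was low in Rnase2a (0.233), Ear2 (0.437), Retnla (0.559) and Arg1 (0.367) and ordinary in Chil3 (0.965). It was also lowest in the macrophage markers Emr1 (65.8 RPM against 137.5 and 154.7), Csf1r (115.7 against 193.2 and 268.8) and Cd68 (30.3 against 50.2 and 73.7). In S100a9 (27383 against 23649 and 22489) and Ngp (11398 against 8261 and 7204) it was highest. The macrophage marker sum spanned only 2932 to 3351 RPM in these libraries. The part of cell mixture in these low values was not tested. In marrow Chil3 had a coefficient of variation of 2.19% between IL4 libraries, where Retnla had 46.9%, Rnase2a 59.6% and Ear2 40.0%. Single libraries made much of this spread: it was 4.03% for Rnase2a, 1.21% for Ear2 and 1.19% for Chil3 without replicate 1, and about 15% for Retnla without replicate 3. In culture these values were 17.1% for Chil3, 59.6% for Retnla, 24.6% for Rnase2a and 63.6% for Ear2. Without replicate 4 they were 16.5% for Chil3, 7.07% for Retnla, 14.3% for Rnase2a and 18.9% for Ear2, so Chil3 no longer had the lowest. With 3 or 4 libraries a group these are descriptions.

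**Figure D4:**
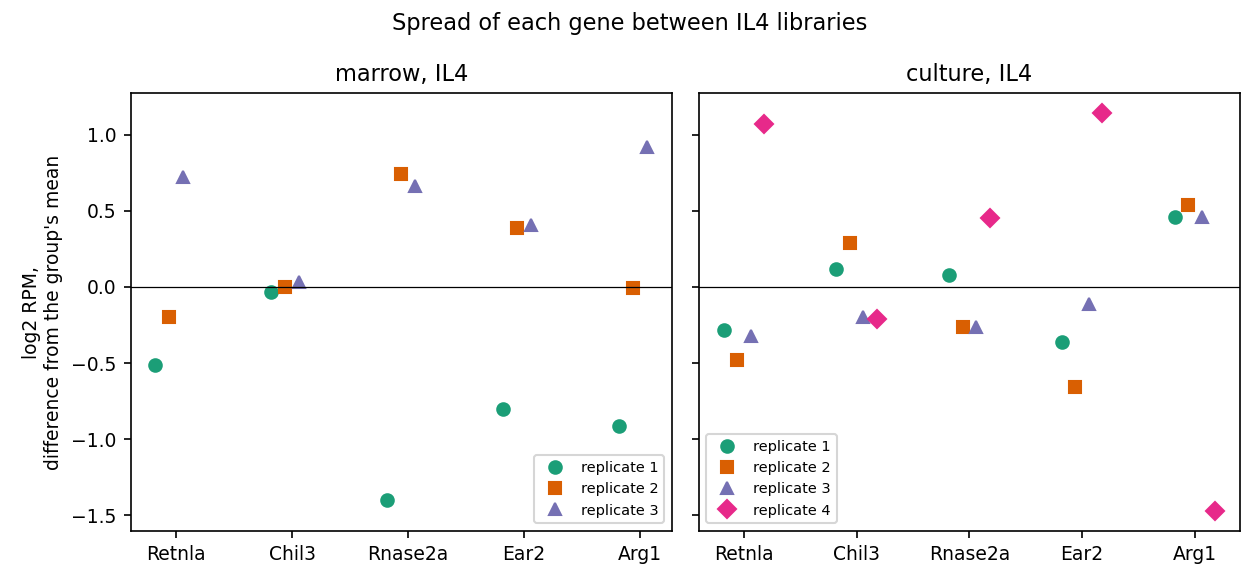
Difference of each IL4 library from its group's mean in log2 RPM, for the 4 genes and Arg1, in marrow (left, 3 libraries) and culture (right, 4 libraries). Culture replicate 4 lies above the others in Retnla, Rnase2a and Ear2 and below them in Arg1, and Chil3 in marrow lies within 0.03 of its mean.

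No measured relative of the 4 genes passed the test upward with IL4 on the values as deposited. Over all genes only 6.70% rose in marrow and 7.96% in culture, so none among the few relatives measured is near these shares. In culture 1 of 3 chitinase family relatives and 1 of 2 ribonuclease A relatives fell, beside 32.6% of all genes. These counts are therefore no result about the families. Of the chitinase family, Chil1 (BRP-39), Ctbs and Chid1 were measured beside Chil3. Chil1 fell in culture by 3.08 ± 0.77 on the log2 scale (limma adjusted p = 0.0105), from few reads, 1 in all IL4 libraries and 22 in all controls. In marrow it was well expressed, at 591 ± 51.8 RPM with IL4 and 804 ± 104 in controls (SD, n = 3 each), with a log2 fold change of -0.45 (adjusted p = 0.0844; -0.44 and 0.00295 with voom weights). Ctbs, a lysosomal chitobiase, and Chid1 had log2 fold changes of -0.11 and 0.54 in marrow and -0.03 and 0.27 in culture, and none passed, but Chid1 passed in culture after centring (0.64, adjusted p = 0.0343). Of the ribonuclease A family, Rnase4 and Rnase6 were measured beside Rnase2a and Ear2. Rnase4 fell in culture, at 31.8 ± 15.2 RPM with IL4 and 146 ± 55.6 in controls (SD, n = 4 each, log2 fold change -2.20, adjusted p = 0.00278), and had a log2 fold change of -0.11 in marrow (adjusted p = 0.903). Rnase6 did not pass in marrow (-0.45, adjusted p = 0.238) or in culture (0.48, adjusted p = 0.247; 0.0322 after quantile normalization). Retnla was the only measured gene of the resistin-like family. Retn, Retnlb, Retnlg, Chil4, Ear1 and Ear10 were not analysed here.

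Other genes of alternative activation rose more often than they fell in both settings. Of 42 listed genes without the 4, 30 were measured, of which 16 rose and 3 fell in marrow (median log2 fold change 2.01, against -0.06 over all genes) and 25 rose and 1 fell in culture (median 2.77, against -0.36). Over all genes 6.70% rose and 11.5% fell in marrow, and 7.96% rose and 32.6% fell in culture. The list was made with earlier results of these data known, so its counts are no independent test. In marrow the rises with the smallest p were those of Cish, an inhibitor of cytokine signalling (3.64 ± 0.24, limma adjusted p = 4.589e-05), the kinase gene Matk (2.73 ± 0.20) and the eosinophil-attracting chemokine gene Ccl24 (7.16 ± 0.57), and the falls were in the fibronectin gene Fn1 (-4.20), Irf4 (-1.54) and Klf4 (-1.45). In culture they were the lectin gene Mgl2 (9.79 ± 0.21, adjusted p = 1.362e-09), the PD-1 ligand gene Pdcd1lg2 (7.64 ± 0.28) and Arg1 (12.90 ± 0.54), and Fcrls fell (-1.52). Arg1 also rose in marrow (7.38 ± 0.66), at 359 ± 218 RPM with IL4 and 1.49 ± 1.46 in controls (SD, n = 3 each). Mrc1, the mannose receptor gene, rose in marrow (3.43 ± 0.38, adjusted p = 0.000488) and had a log2 fold change of 0.14 in culture (adjusted p = 0.648; -0.11 without control 4), where it was high in both groups, at 1180 ± 119 RPM with IL4 and 1114 ± 344 in controls (SD, n = 4 each).

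Of 20 listed genes of the IL4 receptor and STAT6 pathway, 16 were measured, of which 4 rose and 1 fell in marrow and 3 rose and 6 fell in culture, with falls of 0 in marrow and 3 in culture when libraries were centred on their medians. The 6 falls in culture stand beside the 32.6% of all genes that fell there, and are near that share. The rises, 4 in marrow and 3 in culture, stand beside 6.70% and 7.96% of all genes, and the 1 fall in marrow beside 11.5%. Il4ra, the receptor chain, rose in marrow, at 191 ± 30.9 RPM with IL4 and 89.7 ± 12.1 in controls (SD, n = 3 each, log2 fold change 1.07, limma adjusted p = 0.00344). In culture it fell, at 75.0 ± 4.40 with IL4 and 166 ± 23.6 in controls (SD, n = 4 each, log2 fold change -1.13, adjusted p = 0.000211). Stat6 did not pass in marrow (0.24, adjusted p = 0.306) or in culture (-0.16, adjusted p = 0.238). The kinase gene Jak2 rose in both (0.76 and 1.42), as did Cish (3.64 and 5.26), and the feedback inhibitor gene Socs1 rose in culture (3.56). Tyk2 fell in marrow (-0.48, adjusted p = 0.0493, lost under 10 of 12 alternatives), and the phosphatase gene Ptpn6 (-1.56) and Pik3r1 (-1.60) fell in culture. Il4 itself was not analysed here.

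Other secreted products did not share one direction. Of 5 measured genes of classical activation, the complement gene C3 rose (1.35) and the chemokine gene Ccl2 fell (-2.71) in marrow, and Ccl3 (-2.51), Ccl2 (-2.84) and the cytokine gene Tnf (-2.36) fell in culture, where 1 rose and 1 fell after centring. Ccl2 lost its call in marrow when any of 4 single libraries was left out (highest adjusted p 0.0768, without control 3), and in culture Ccl2 (0.0601) and Tnf (0.0742) lost it after centring. Of 33 other measured secreted products 8 rose and 5 fell in marrow and 13 rose and 16 fell in culture, or 9 and 4, and 13 and 12, after centring. Over all genes 6.70% rose and 11.5% fell in marrow, and 7.96% rose and 32.6% fell in culture. The 5 falls in marrow are near their share, while the rises, 8 in marrow and 13 in culture, lie above theirs. The list was made with earlier results of these data known, so its counts are no independent test. In marrow Hgf (3.95), the complement gene C1qb (3.44) and the chemokine gene Ccl6 (1.47) rose and the lysozyme gene Lyz2 (-2.28), Thbs1 (-7.89) and Fn1 (-4.20) fell. In culture the protease genes Ctsk (4.53) and Mmp19 (2.86) and Ccl6 (2.51) rose and Gas6 (-3.54), Lyz2 (-2.25) and Il16 (-2.66) fell. Lyz2, a major secreted product of macrophages and monocytes, stood at 1837 ± 267 RPM with IL4 and 8841 ± 975 in controls in marrow (SD, n = 3 each), and at 2258 ± 675 and 10396 ± 481 in culture (SD, n = 4 each).

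The genes most like each of the 4 were sought by the root mean square difference of log2 values over the 14 libraries, after each gene's mean in each setting was taken off. For Rnase2a the nearest was Mgl2 (0.77, against a median of 4.66 over all genes), followed by the arginine transporter gene Slc7a2 (1.35) and Arg1 (1.38). For Retnla they were Arg1 (1.69), Rnase2a (1.93) and Mgl2 (2.41), against a median of 6.50. Chil3 was nearest to Ear2 (1.28), then to Mgl2 (1.54) and Arg1 (1.71), against a median of 5.02. For Ear2 they were Pdcd1lg2 (1.20), Chil3 (1.28) and the tubulin gene Tuba8 (1.39), against a median of 3.95. Retnla and Rnase2a had no reads in any control, whereas Chil3 and Ear2 had reads in marrow controls and were close to each other on this measure. The measure takes no account of level: Mgl2 stood at 322 ± 83.2 RPM with IL4 and 5.58 ± 3.91 in controls in marrow (SD, n = 3 each), and at 643 ± 87.5 with IL4 and 0 in controls in culture (SD, n = 4), where Rnase2a averaged 153 ± 91.4 and 775 ± 190 RPM with IL4 in marrow and culture and had no control reads.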

How the data were processed

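RNA of the 14 libraries was extracted with RNeasy Micro columns and sequenced from TruSeq v2 libraries, per the labels' protocols. The submitters' processing notes name bcl2fastq, TopHat2 2.0.13 and mm10 (the same assembly as GRCm38). The counting, gene filter, normalization and any use of strand have no statement in the labels used here. The authors' deposited tables, 1 for each setting, hold log2 values per library, a fold change (a linear ratio) and p-values and q-values for the same 9474 genes. The number of unused per-sample columns was 0.

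Each deposited log2 value equals log2(reads + 0.5) plus 1 constant for the gene and 1 for the library, as the values themselves show. Solving for these gave whole reads for 9471 genes (99.97%). The library constants follow the library totals, so values compare between the tables as log2 of reads per 1000000 (RPM). For Chil3 the smallest whole-number solution was taken, and the next would multiply its reads by about 3. With it, library constant plus log2 total ranged over 0.0217 between libraries, against 0.0978 with the next solution. Reads of Chil3 and Retnla above the resolution of the deposited decimals are uncertain by up to 10.4 and 4.3 reads. All fold changes and tests rest on the deposited log2 values, and the design, which allowed for linear values or counts, was applied with limma.

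Limma 3.58.1 (R 4.3.3) with a variance trend was fitted to the log2 values of each table without covariates, and for the difference between settings to the 4 group means of both. The residual degrees of freedom were 4 in marrow, 6 in culture and 10 for the difference. P-values are two-sided and adjusted by Benjamini-Hochberg over all 9474 genes, with a threshold of 0.05. Every adjusted p is from limma. Exact permutation tests and exact 95% intervals used scipy 1.17.1. The fits were also run on simulated data, with set fold changes far smaller than those of Retnla and Rnase2a. That check does not cover changes of such size. Gene names and promoters are from RefSeq, gene models from GENCODE M21. No protein sequences were used.

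The members and lists (7 gene lists and 8 marker lists, 238 genes, 122 measured) were chosen with earlier results of these data known. Named are the 4 genes, measured members of their families, the 3 nearest genes of each, up to 3 changed genes with the smallest p per direction in the other lists, marker genes given beside a result, and Arg1, Mrc1, Emr1, Csf1r, Il4, Il4ra and Stat6. The alternatives were centring on the median, quantile normalization, no variance trend, a replicate block, a filter on low genes, voom on the recovered reads and each library left out.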

Additional observations from a re-analysis of the deposited data

Results flagged for a closer look

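Of 6 group values of the 4 genes in the culture setting that were examined for an outlying library, 3 held one by Dixon's critical value, where chance flags about 1 in 20 groups. That rate does not apply to Chil3 and Ear2, since 3 libraries with equal low reads give any higher one such a gap. Retnla in culture IL4 replicate 4 stood at 17762 RPM (11618 reads), with a gap to the nearest library of 0.924 of the range. Chil3 in culture control 2 stood at 9.87 RPM, which is 6 reads against 2 in each of the others. Ear2 in culture control 2 stood at 3.29 RPM, which is 2 reads against 0 in the others. Groups of 3 were not examined.

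The response to IL4 differed between settings, marrow minus culture, by the test of the difference: -1.98 on the log2 scale for Retnla, -9.63 for Chil3, -2.66 for Rnase2a and -7.97 for Ear2 (limma adjusted p = 0.00972, 3.097e-08, 0.00438 and 2.010e-05). With voom on the recovered reads the differences for Retnla and Rnase2a did not pass (adjusted p = 0.586 and 0.245).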

How the results depend on the processing

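All 4 genes kept their rise and their side of the threshold under every alternative run in marrow (11 or 12 each) and in culture (14 each). Over these, the log2 fold change was 11.17 to 11.79 for Retnla, 2.85 to 3.06 for Chil3, 7.01 to 8.07 for Rnase2a and 1.57 to 2.17 for Ear2 in marrow, and 13.16 to 13.95, 12.35 to 13.03, 9.89 to 10.54 and 9.37 to 10.39 in culture. The highest adjusted p was 0.0222, for Ear2 in marrow with no variance trend. Rnase2a in marrow has no value under the filter on low genes, which removes it. For the difference between settings, voom on the recovered reads ended the call for Retnla (-1.95, adjusted p = 0.586) and Rnase2a (-2.60, adjusted p = 0.245), and the cause was not tested. The other 19 alternatives kept both, and all 20 kept Chil3 and Ear2. The difference for Rnase2a was -1.97 without marrow IL4 replicate 1, and that for Ear2 -8.62 without culture control 2.

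The number of genes changed was 1721 in marrow (635 up, 1086 down; 895 and 845 after centring, 806 and 887 after quantile normalization), 3838 in culture (754 and 3084; 1365 and 1205; 1271 and 1324) and 2186 for the difference (1575 with the response higher in marrow and 611 lower; 900 and 889; 914 and 861). Leaving out each library in turn gave 1104 to 1460 in marrow, where 1104 was without control 3 and 1147 without control 2, 2995 to 4004 in culture and 1792 to 2589 for the difference. Same-numbered libraries did not deviate together (r = 0.026, 0.059 and 0.035 in marrow and 0.019, -0.007, 0.022 and -0.045 in culture). Whether the numbers pair the samples is not settled by this, since counting error alone keeps r low where it makes up much of the deviations. With the replicate block 1764, 3447 and 1925 genes passed, and no call of the 4 genes changed. Of 780 list counts under the alternatives, 70 moved by more than 1.5 times. Alternatives added after seeing the data were the second log2 of the culture values, which served only to match the deposited fold changes, and the ratios of reads, levels and coefficients of variation without single libraries, of which 8 of 59 values moved by over 1.5 times (all 8 are given above), and marker sums without both replicate 4 libraries. Of 60 fold changes or calls of other genes given in the text, 45 kept call and direction throughout. Calls were lost for 6: Ccl2 in marrow without IL4 replicates 1 or 3 or controls 1 or 3 (adjusted p = 0.0529, 0.0590, 0.0654 and 0.0768), Csf1r in marrow with no variance trend (0.0554) and without controls 2 or 3 (0.0705 and 0.0578), Ngp and Tyk2 in marrow as given above, Ccl2 in culture after centring (0.0601), quantile normalization (0.0562) and without IL4 replicate 3 or controls 1 or 2 (0.0567, 0.0575 and 0.0750), and Tnf in culture after centring (0.0742), quantile normalization (0.144), with the block (0.0554) and without IL4 replicate 2 or controls 1 or 2 (0.0569, 0.0806 and 0.0626). Calls were gained for 5 (S100a8, S100a9 and Chil1 in marrow, Chid1 and Rnase6 in culture, as given above), and 4 values near 0 changed sign: Rnase4 in marrow (0.06 after quantile normalization, 0.0 with voom, -0.53 to 0.16 with a library left out), and in culture Ctbs (0.33 after centring, 0.26 after quantile normalization, -0.19 to 0.14), Stat6 (0.20 and 0.07) and Mrc1 (-0.11 to 0.28, lowest without control 4). Libraries of at most 883073 recovered reads limit what zeros show: a control with 0 reads allows 3.40 to 4.94 RPM.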
